A study of Mus musculus with 6 samples.

Results

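The 10 genes described here encode the machinery that shows peptides to T cells in the mouse ovary. They are the class I light chain B2m and heavy chains H2-K1 and H2-D1, the class II chains H2-Aa, H2-Ab1 and H2-Eb1, the class II loading genes Cd74, H2-DMa and H2-DMb1, and the class II transactivator Ciita. They were taken by gene symbol from a deposited table of 37924 genes, and no measured value chose them. All 10 were found, and 9 had a mean of at least 0.5 FPKM (fragments scaled to transcript length and library size) and were tested among 14934 genes. Ciita, at a mean of 0.147 FPKM, was not tested.

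RNA of whole ovaries was sequenced from mice at postnatal day 14. The conditional knockouts (cKO) were 3 libraries from mice homozygous for a floxed allele and carrying Gdf9iCre, a Cre recombinase under the promoter of an oocyte gene. The control group held 3 libraries from mice homozygous for the same floxed allele with no Cre named in the label. All mice were of the strain C57BL/6J/129S7/SvEvBrd, and each library came from a pool of 1 ovary from each of 3 mice, so animals within a pool cannot be separated. Libraries are numbered in deposit order, which pairs nothing between groups. The numbers in the library titles set cKO 2 and cKO 3 apart from cKO 1 and the controls, and the labels do not say what those numbers mean. The deletion was not checked from the values here.

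Class I molecules pair a heavy chain with beta-2 microglobulin and display peptides from inside the cell on nearly all nucleated cells, where cytotoxic T cells read them. Class II molecules pair an alpha with a beta chain and display peptides from engulfed material to helper T cells, mostly on macrophages, dendritic cells and B cells. The invariant chain, made by Cd74, guards the new class II groove, H2-DM swaps its remnant for a peptide, and Ciita switches on the class II genes, while Nlrc5 does so for class I. In the ovary, resident macrophages are common leukocytes and some of them carry class II.

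Promoters of genes of both classes share a module of short boxes, so the promoters of 5 of the 7 genes searched are shown first. Those of H2-DMa and H2-DMb1 were searched but are not shown. They run from 250 bases before to 50 after the gene start in RefSeq (build GRCm38.p6), 5′ to 3′ on the gene's strand. B2m lies at chr2:122147437-122147736 (+), H2-K1 at chr17:34000298-34000597 (-), H2-D1 at chr17:35262844-35263143 (+), H2-Aa at chr17:34287774-34288073 (-) and H2-Eb1 at chr17:34305617-34305916 (+). Capitals mark 4 patterns searched on both strands. These are ATTGG (the core of the box bound by NF-Y), TTTCNNTT (part of an interferon response element), GGGGATTCC (a kappa B site) and TGANG followed after 12 to 24 bases by ATTGG, which overlaps the first pattern and resembles the spacing between the X and Y boxes of class II promoters.
B2m: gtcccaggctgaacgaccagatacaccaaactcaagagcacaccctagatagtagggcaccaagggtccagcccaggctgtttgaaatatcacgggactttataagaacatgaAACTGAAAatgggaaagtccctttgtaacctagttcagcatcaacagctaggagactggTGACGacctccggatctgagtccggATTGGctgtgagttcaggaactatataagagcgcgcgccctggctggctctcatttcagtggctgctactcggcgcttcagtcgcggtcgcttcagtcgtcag
H2-K1: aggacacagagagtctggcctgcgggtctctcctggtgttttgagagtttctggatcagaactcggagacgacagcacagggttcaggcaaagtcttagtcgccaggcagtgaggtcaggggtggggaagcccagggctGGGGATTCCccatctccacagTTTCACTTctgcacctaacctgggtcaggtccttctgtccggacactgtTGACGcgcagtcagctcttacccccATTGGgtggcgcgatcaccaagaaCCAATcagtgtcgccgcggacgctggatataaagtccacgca
H2-D1: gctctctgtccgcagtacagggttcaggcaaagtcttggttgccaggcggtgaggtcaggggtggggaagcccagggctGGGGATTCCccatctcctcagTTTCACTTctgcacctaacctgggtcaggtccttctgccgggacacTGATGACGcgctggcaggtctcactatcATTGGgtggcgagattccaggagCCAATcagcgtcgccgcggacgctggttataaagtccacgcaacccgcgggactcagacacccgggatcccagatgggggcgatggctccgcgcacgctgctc
H2-Aa: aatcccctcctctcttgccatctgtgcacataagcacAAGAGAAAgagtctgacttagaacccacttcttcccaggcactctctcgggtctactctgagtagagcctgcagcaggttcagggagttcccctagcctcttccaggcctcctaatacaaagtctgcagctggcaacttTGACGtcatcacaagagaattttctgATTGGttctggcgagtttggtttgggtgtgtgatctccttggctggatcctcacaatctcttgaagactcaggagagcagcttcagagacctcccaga
H2-Eb1: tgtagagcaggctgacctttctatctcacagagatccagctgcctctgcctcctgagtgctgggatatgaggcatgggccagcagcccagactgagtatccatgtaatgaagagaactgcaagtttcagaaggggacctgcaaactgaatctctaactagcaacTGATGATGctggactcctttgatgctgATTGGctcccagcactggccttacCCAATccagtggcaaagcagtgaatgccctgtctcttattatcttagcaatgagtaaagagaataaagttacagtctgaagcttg

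The patterns were chosen from textbook knowledge and after these promoters had been read, so their counts are descriptions. The promoters of H2-Ab1, Cd74 and Ciita were not searched, that of Cd74 by choice, so the counts do not cover these genes. ATTGG was found in 6 of the 7 promoters searched, against 37.9% of 27025 mouse promoters of the same length. TTTCNNTT was found in 4 of 7, against 24.2% of all promoters. GGGGATTCC was found in 2 of 7, H2-K1 and H2-D1, against 0.259% of all promoters. TGANG followed by ATTGG was found in 6 of 7, against 3.31% of all promoters, with 19 to 23 bases between both words. None of the 4 patterns was found in the window of H2-DMa. The longest run of bases shared by the H2-K1 and H2-D1 windows was 47. These heavy chain genes and other class I genes are close paralogs, so fragments may be divided between them and their FPKM values carry that uncertainty.

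The estimated depth was 22.5 to 24.9 M (1e6) fragments in the cKO libraries and 19.6 to 22.7 M in the control libraries. Summed markers of granulosa cells were 2175 to 2615 FPKM in cKO pools and 3368 to 4325 FPKM in control pools, and those of oocytes were 1352 to 2073 FPKM in cKO pools and 986 to 1117 FPKM in control pools, so the tissue was ovary by its markers. In cKO pools 5 of 12 granulosa cell markers fell, and 4 of 12 oocyte markers, 2 of 10 stroma markers and 5 of 6 tested mast cell markers rose. Of all genes tested, 2.09% were called lower and 2.24% higher. Library cKO 3 stood apart with a summed neutrophil marker level of 653.7 FPKM, against 1.33 and 1.14 FPKM in cKO 1 and cKO 2 and 0.99 to 1.63 FPKM in the control pools. Library control 3 stood apart with an adipose marker sum of 41.7 FPKM, against 16.8 to 17.8 FPKM in the cKO pools and 15.6 to 16.3 FPKM in the other control pools. Summed red blood cell markers were 1277, 924 and 4177 FPKM in cKO pools, against 6278, 3989 and 2021 FPKM in control pools, with 0 of 6 past the threshold or at an unadjusted p below 0.05 (limma). Like the class II sum below, the blood sum was higher in cKO 3 than in cKO 1 and cKO 2. Among the control libraries the order differed, as control 1 was highest for blood and lowest for class II. Whether these differences in tissue makeup have a part in the results below was not tested. Fits without cKO 3 or control 3 take out the library of high neutrophil or high adipose markers. They cannot address the granulosa cell and oocyte marker differences, which separate all cKO pools from all control pools. In a bulk sample, fewer cells of a type and less RNA per cell cannot be told apart.

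All 9 tested MHC genes had lower mean levels in cKO ovaries, and B2m was the 1 gene that passed the test. The test was limma on log2(FPKM + 1) with p-values adjusted by Benjamini-Hochberg over all genes and a threshold of 0.05. Over the 14934 genes, 2.09% were called lower (312) and 2.24% higher (334). Scaling moved this split, to 421 lower and 270 higher after quantile normalisation and to 577 lower and 254 higher after centring on the median. The median log2 change of the 9 genes was -0.45, against 0.05 for all genes tested, of which 41.5% had a negative change. At an unadjusted p below 0.05, 6 of the 9 were lower, against 9.8% of all genes. In 3 of the 9, B2m, H2-D1 and H2-Eb1, every cKO library lay below every control library, which was so for 12% of all genes.

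**Figure D1:**
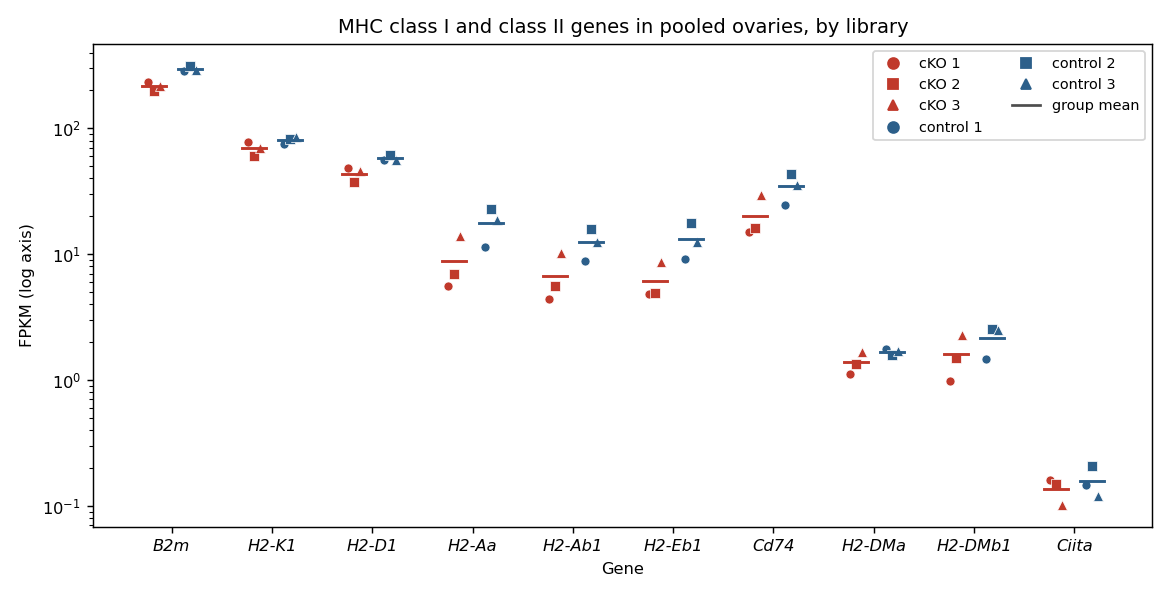
FPKM of the 10 MHC genes on a log axis in each cKO library (red, left) and control library (blue, right), with 1 marker shape per replicate and a line at the group mean. B2m is separate between groups at 198 to 232 against 284 to 313 FPKM, the class II chains and Cd74 spread widely inside each group, and Ciita lies near 0.1 to 0.2 FPKM in all 6 libraries.

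The class I genes were the most abundant of the 10 in both groups. B2m (chr2:122147686-122153083), the light chain common to class I molecules, was measured at 231.9, 198.1 and 217.9 FPKM in cKO libraries 1 to 3, against 284.3, 313.5 and 289.3 FPKM in control libraries 1 to 3. Its groups did not overlap, and its mean was 216 ± 17 FPKM in cKO ovaries and 296 ± 15.6 FPKM in control ovaries (SD, n = 3 each). B2m fell by 0.45 on the log2 scale (SE 0.088, adjusted p = 0.0378, limma). With any 1 library left out the log2 change was -0.51 to -0.39. None of these 6 fits passed, with adjusted p from 0.0607 to 0.185, although every unadjusted p was at most 0.0074 (limma).

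H2-D1 (chr17:35262730-35267499), a heavy chain, was measured at 48.1, 37.2 and 45.6 FPKM in cKO libraries, against 56.4, 61.0 and 56.3 FPKM in control libraries. Every cKO value lay below every control value. Its log2 change of -0.41 (SE 0.11) did not pass (adjusted p = 0.0767, limma), although it did after quantile normalisation (adjusted p = 0.0439), centring on the median (adjusted p = 0.0358) and weighting of libraries (adjusted p = 0.0308). H2-K1 (chr17:33996017-34000347), the other classical heavy chain measured, had 78.3, 60.3 and 69.8 FPKM in cKO libraries, against 75.4, 82.8 and 84.8 FPKM in control libraries. Here cKO 1 lay above control 1, so the groups overlapped, and the log2 change was -0.22 (SE 0.11, adjusted p = 0.251, limma), or -0.13 for H2-K1 without cKO 2.

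Ratios between the class I genes differed slightly between groups. The FPKM ratio of H2-K1 to H2-D1 was 1.63, 1.62 and 1.53 in the cKO libraries, against 1.34, 1.36 and 1.5 in the control libraries. The ratio of B2m to the sum of both heavy chains was 1.83, 2.03 and 1.89 in the cKO libraries, against 2.16, 2.18 and 2.05 in the control libraries. The groups did not overlap in either ratio, and neither was tested.

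The class II chains were lower in level and far more variable than class I. H2-Aa (chr17:34282744-34287823), the alpha chain of the A molecule, was measured at 5.58, 6.98 and 14.0 FPKM in cKO libraries, against 11.5, 23 and 18.6 FPKM in control libraries. Library cKO 3 was the highest of its group and lay above control 1, the lowest of its own. The mean was 8.86 ± 4.52 FPKM in cKO ovaries and 17.7 ± 5.83 FPKM in control ovaries, with a log2 change of -0.97 (SE 0.34, adjusted p = 0.14, limma).

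H2-Ab1 (chr17:34257689-34269419), the beta chain that pairs with it, was measured at 4.39, 5.61 and 10.3 FPKM in cKO libraries, against 8.90, 16.0 and 12.5 FPKM in control libraries. The order of the libraries was that of H2-Aa, with cKO 3 above control 1 and control 2 highest. The log2 change was -0.83 (SE 0.29, adjusted p = 0.142, limma). H2-Eb1 (chr17:34305867-34316674), the beta chain of the E molecule, was measured at 4.79, 4.92 and 8.69 FPKM in cKO libraries, against 9.15, 17.5 and 12.6 FPKM in control libraries. All cKO values lay below all control values, with cKO 3 and control 1 close to each other. Its mean was 6.13 ± 2.22 FPKM in cKO ovaries and 13.1 ± 4.22 FPKM in control ovaries, with a log2 change of -0.98 (SE 0.27, adjusted p = 0.0818, limma).

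Cd74 (chr18:60803848-60812652), which encodes the invariant chain, was measured at 15.1, 16.0 and 29.7 FPKM in cKO libraries, against 24.6, 43.6 and 35.4 FPKM in control libraries. As for the chains of the A molecule, cKO 3 lay above control 1 and the other cKO libraries lay below all controls. The log2 change was -0.77 (SE 0.28, adjusted p = 0.154, limma). Without cKO 3 the log2 changes of these 4 genes were larger, at -1.32 for H2-Aa, -1.14 for H2-Ab1, -1.22 for H2-Eb1 and -1.07 for Cd74, with adjusted p between 0.0596 and 0.065 (limma). They were smaller without cKO 1, at -0.72 for H2-Aa, -0.61 for H2-Ab1, -0.85 for H2-Eb1 and -0.60 for Cd74, with adjusted p between 0.229 and 0.364 (limma). Without control 2 they were -0.76 for H2-Aa, -0.65 for H2-Ab1, -0.76 for H2-Eb1 and -0.59 for Cd74, with adjusted p between 0.263 and 0.411 (limma). Without control 3 they were -0.91 for H2-Aa, -0.81 for H2-Ab1, -0.99 for H2-Eb1 and -0.73 for Cd74, with adjusted p between 0.132 and 0.246 (limma). Leaving out control 1 also made them larger, at -1.23 for H2-Aa, -1.04 for H2-Ab1, -1.20 for H2-Eb1 and -0.99 for Cd74. Leaving out cKO 2 gave -0.86 for H2-Aa, -0.75 for H2-Ab1, -0.87 for H2-Eb1 and -0.64 for Cd74. None of the 4 genes passed in either fit.

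The peptide exchange factor genes were weakly expressed. H2-DMa (chr17:34119541-34139101) was measured at 1.13, 1.35 and 1.66 FPKM in cKO libraries, against 1.75, 1.59 and 1.70 FPKM in control libraries. Library cKO 3 lay inside the control values, and the log2 change was -0.18 (SE 0.13, adjusted p = 0.442, limma). It shares 360 exon bases with Brd2 on the opposite strand, and the strand setting of the counting is not given in the sources used here, so its value is uncertain. H2-DMb1 (chr17:34153072-34160230), its partner chain, was measured at 0.99, 1.51 and 2.30 FPKM in cKO libraries, against 1.46, 2.52 and 2.49 FPKM in control libraries. The groups overlapped, and the log2 change was -0.29 (SE 0.22, adjusted p = 0.462, limma). Single libraries moved these values, to -0.12 for H2-DMb1 and -0.10 for H2-DMa without cKO 1, and to -0.48 for H2-DMb1 and -0.26 for H2-DMa without cKO 3. Without control 1 the change of H2-DMb1 was -0.46. These values stand for an estimated 90 to 143 fragments per library for H2-DMa and 39 to 96 for H2-DMb1, against 3826 to 5813 for B2m.

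Ciita (chr16:10480059-10528418), the transactivator, was measured at 0.159, 0.148 and 0.102 FPKM in cKO libraries, against 0.146, 0.208 and 0.12 FPKM in control libraries. The groups overlapped, with the lowest value in cKO 3 and the highest in control 2. Its mean was 0.136 ± 0.030 FPKM in cKO ovaries and 0.158 ± 0.045 FPKM in control ovaries. An estimated 22 to 43 fragments per library lie behind these values, and Ciita shares 329 exon bases with Dexi on the opposite strand. With no filter on low values its log2 change was -0.03 (adjusted p = 0.772, limma). Adding 1 before the log compresses changes at values this low.

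**Figure D2:**
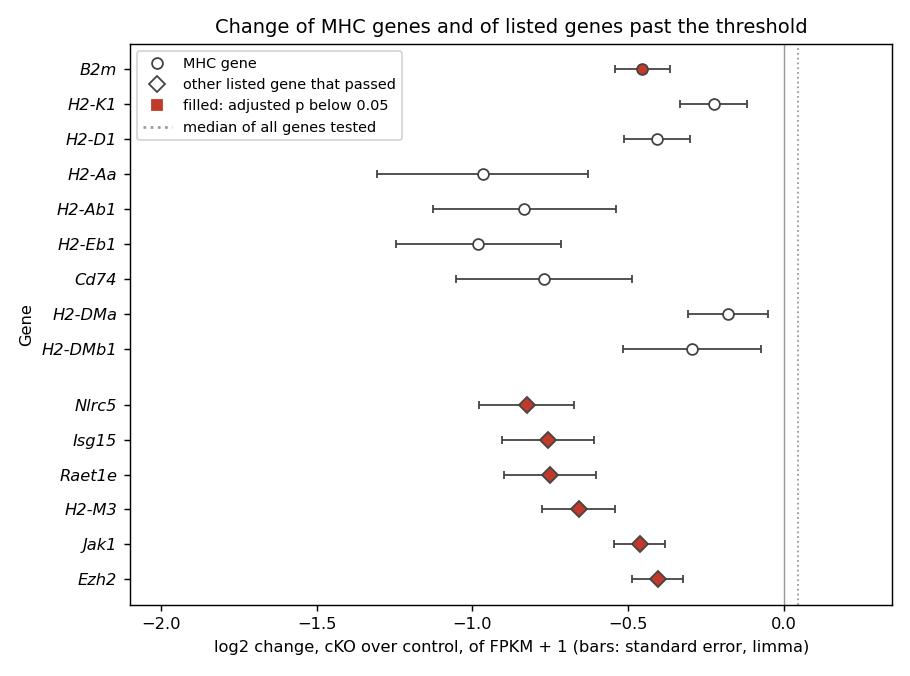
log2 change of FPKM + 1 in cKO over control ovaries, with bars for the standard error from limma, for the 9 tested MHC genes (circles) and the other listed genes that passed (diamonds). Filled symbols passed an adjusted p of 0.05, and the dotted line is the median of all genes tested. The changes of the 9 MHC genes are all negative, from -0.18 for H2-DMa to -0.98 for H2-Eb1. The diamonds are negative too, but they are shown because they passed. Of the 97 other listed genes tested, 60 were negative.

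The order of levels, which FPKM allows because it is scaled to length, was nearly the same in both groups. In cKO ovaries B2m was followed by H2-K1, H2-D1, Cd74, H2-Aa, H2-Ab1, H2-Eb1, H2-DMb1, H2-DMa and Ciita. Ranges of mean ± SD overlapped between neighbours from Cd74 down to H2-Eb1 and between H2-DMb1 and H2-DMa. In control ovaries H2-Eb1, at 13.1 ± 4.22 FPKM, stood before H2-Ab1, at 12.5 ± 3.53 FPKM, and the ranges of H2-Aa, H2-Eb1 and H2-Ab1 overlapped, as did those of H2-DMb1 and H2-DMa, while Cd74 stood apart from H2-Aa. All other neighbours stood apart in both groups.

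The class II chains varied together across libraries. The summed FPKM of the class II chains H2-Aa, H2-Ab1 and H2-Eb1 was 14.8, 17.5 and 33.0 in cKO libraries, against 29.6, 56.6 and 43.7 in control libraries, a 3.83-fold range. Over the same libraries the ratio of H2-Aa to H2-Ab1 stayed between 1.24 and 1.36 in cKO and between 1.29 and 1.48 in control. The ratio of Cd74 to H2-Aa was 2.70, 2.30 and 2.12 in cKO libraries, against 2.14, 1.89 and 1.90 in control libraries.

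As a description over 6 libraries, which share the group difference, the Pearson correlation of log2(FPKM + 1) with H2-Aa was 0.998 for H2-Ab1, 0.996 for Cd74, 0.978 for H2-Eb1, 0.928 for H2-DMb1 and 0.79 for H2-DMa. For Ciita it was 0.112, on an estimated 22 to 43 fragments per library and with exon bases shared with Dexi. Whether the transactivator's RNA follows that of the class II chains therefore cannot be read from this value. With B2m the correlation was 0.975 for H2-D1 and 0.856 for H2-K1, and 0.736 for H2-Aa. Among 12268 other genes with a symbol and a mean of at least 1 FPKM, those most like the mean of H2-Aa, H2-Ab1, H2-Eb1 and Cd74 were Fam96b, Cox16, Cd83, Nup85 and Paqr6, with correlations of 0.982 to 0.988. Cd83, a surface protein of mature antigen presenting cells, was at 0.818, 0.805 and 1.41 FPKM in cKO libraries, against 1.18, 1.77 and 1.64 FPKM in control libraries (log2 change -0.34, adjusted p = 0.273, limma). Those most like the mean of B2m, H2-K1 and H2-D1 were Psmc6, Snapin, Shisa2, Trim36 and Rrbp1, with correlations of 0.994 to 0.998. These correlations rest on 6 libraries and are not tests, and with 12268 genes screened, high values can arise by chance. Cd83 was chosen for following the class II genes over these libraries, so its lower cKO level follows from that choice.

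**Figure D3:**
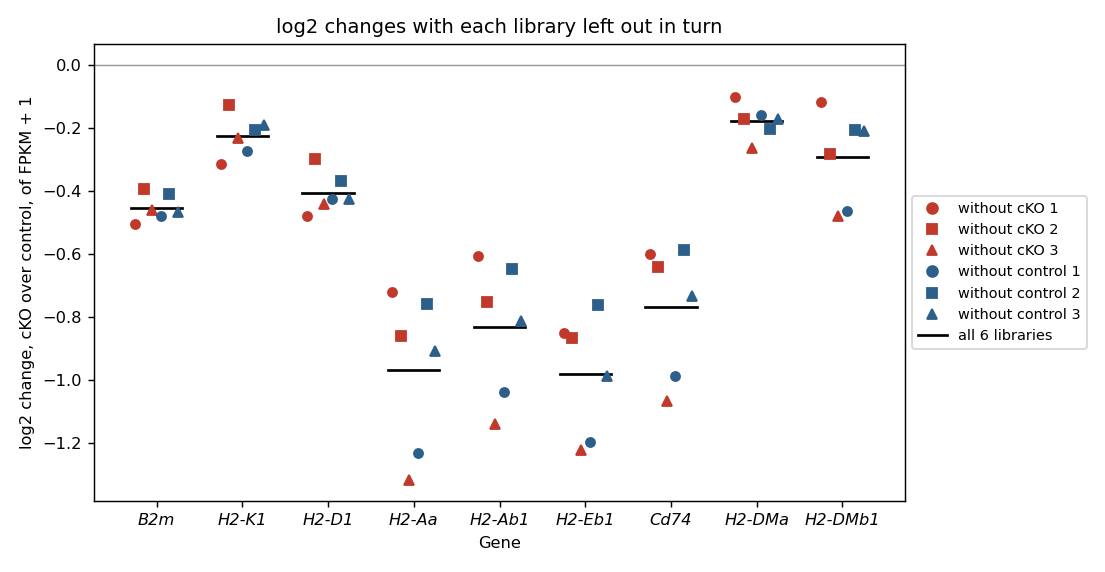
log2 change of FPKM + 1 in cKO over control ovaries for each tested MHC gene, with all 6 libraries (black line) and with each cKO library (red) or control library (blue) left out in turn. Every value is below 0. H2-K1 runs from -0.31 without cKO 1 to -0.13 without cKO 2, and H2-Aa from -1.32 without cKO 3 to -0.72 without cKO 1.

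Other genes of antigen presentation and of its interferon control mostly did not pass the test. Of 126 listed symbols 119 were found and 97 were tested, of which 6 fell and 0 rose at the adjusted threshold (limma). Among all genes, 2.09% were called lower and 2.24% higher. These shares also stand beside the counts of each list below, which are small. At an unadjusted p below 0.05, 21 were lower and 4 higher, against 9.8% of all genes lower and 14.5% higher. Their median log2 change was -0.07 with 60 negative values, and 20 had every cKO library below every control library, against 12% of all genes.

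Among other class I and class I-like genes, 2 of 19 tested fell and 12 were negative, with a median log2 change of -0.07. H2-M3, a class I-like molecule that presents formylated peptides, was at 5.82, 5.83 and 5.88 FPKM in cKO libraries, against 11.1, 10.4 and 8.14 FPKM in control libraries. The cKO values were almost identical and lay below all controls, and H2-M3 fell by 0.66 on the log2 scale (SE 0.12, adjusted p = 0.0332, limma). Raet1e, of a family of ligands for the receptor NKG2D, was at 3.33, 3.49 and 3.95 FPKM in cKO libraries, against 6.90, 8.19 and 5.30 FPKM in control libraries. It fell by 0.75 on the log2 scale (SE 0.15, adjusted p = 0.0387, limma), though it shares exons with Raet1d and H60b on the same strand and its value is uncertain.

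Of the 16 genes that supply class I with peptides or switch it on, 1 fell, 13 were negative, and the median log2 change was -0.09. The gene that fell was Nlrc5, the class I transactivator, at 0.662, 0.783 and 0.673 FPKM in cKO libraries, against 1.58, 2.61 and 1.95 FPKM in control libraries. All cKO values of Nlrc5 lay below all control values, and the log2 change was -0.82 (SE 0.15, adjusted p = 0.0349, limma). Exons of Nlrc5 overlap a gene on the opposite strand, and it kept the sign but passed in 0 of 6 fits with 1 library left out.

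No gene of the other class II chains and loading enzymes passed among 8 tested (limma), with 1 lower and 1 higher at an unadjusted p below 0.05. Of these 8, 2 were negative, and their median log2 change was 0.09. The most abundant genes of this list were lysosomal proteases. Ctsl, which cuts the invariant chain in thymic epithelium, was at 376, 336 and 359 FPKM in cKO libraries, against 563, 618 and 351 FPKM in control libraries (adjusted p = 0.197, limma). Ctsd was at 182, 148 and 175 FPKM in cKO libraries, against 153, 156 and 146 FPKM in control libraries (adjusted p = 0.395, limma). H2-Ea-ps, named after its values were seen, the symbol of the E alpha locus, was listed at 0 in all 6 libraries. C57BL/6 mice are known to lack a functional E alpha gene.

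Of the 14 factors that bind or modify class II promoters, 1 fell and 7 were negative, with a median log2 change of -0.01. Ezh2, a histone methyltransferase of the Polycomb complex, was at 26.2, 27.2 and 30.5 FPKM in cKO libraries, against 38.2, 36.1 and 37.4 FPKM in control libraries. It fell by 0.40 on the log2 scale (SE 0.082, adjusted p = 0.0413, limma), with every cKO value below every control value, and shares exon bases with a gene on the opposite strand. In the interferon gamma list 1 of 17 tested genes fell and 10 were negative, with a median log2 change of -0.10. That gene was Jak1, a kinase of interferon receptors, at 91.7, 83.0 and 79.9 FPKM in cKO libraries, against 124.1, 114.9 and 112.5 FPKM in control libraries (log2 change -0.46, SE 0.083, adjusted p = 0.0333, limma).

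In the type I interferon list 1 of 22 tested genes fell and 16 were negative, with a median log2 change of -0.24. Isg15, a ubiquitin-like protein induced by interferon, was at 3.16, 2.98 and 4.25 FPKM in cKO libraries, against 7.68, 6.24 and 5.68 FPKM in control libraries. It fell by 0.76 on the log2 scale (SE 0.15, adjusted p = 0.0382, limma), with no overlap between groups. Of 3 tested costimulation genes, 0 passed at the adjusted threshold or at an unadjusted p below 0.05 (limma), and 1 was negative. The most abundant were Icosl, at 23.2 to 25.7 FPKM in cKO and 21.0 to 26.6 FPKM in control libraries (adjusted p = 0.72), and Icam1, at 3.31 to 4.45 FPKM in cKO and 3.20 to 4.13 FPKM in control libraries (adjusted p = 0.616, limma). Of the 6 passing genes, Isg15 passed in 2 of 6 fits with 1 library left out, H2-M3, Raet1e, Jak1 and Ezh2 in 1 each and Nlrc5 in 0.

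Markers of leukocytes as a whole and of the cell types that carry class II were summed in each library. All 10 of 10 markers common to leukocytes were found and tested, 0 passed and 0 were negative, with 2 higher at an unadjusted p below 0.05 (limma). Their summed level was 62.5, 53.0 and 105.8 FPKM in cKO libraries, against 38.1, 49.9 and 53.6 FPKM in control libraries. The sum was highest in cKO 3, the library of high neutrophil markers, and in cKO 2 it lay below control 3. The highest of them were Lcp1 and Arhgdib, which are also the 2 with an unadjusted p below 0.05 (limma). Lcp1 was at 20.6, 14.6 and 20.9 FPKM in cKO libraries, against 9.33, 10.7 and 13.6 FPKM in control libraries (adjusted p = 0.0703, limma). Arhgdib was at 12.2, 13.4 and 18.8 FPKM in cKO libraries, against 8.88, 10.5 and 10.8 FPKM in control libraries (adjusted p = 0.118, limma). Ptprc and Cd53 were named after their values were seen. Ptprc was at 0.486, 0.531 and 0.995 FPKM in cKO libraries, against 0.465, 0.742 and 0.662 FPKM in control libraries. The log2 change was 0.03 for Ptprc (adjusted p = 0.926, limma) and 0.05 for Cd53 (adjusted p = 0.869, limma).

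All 14 macrophage markers were found and 13 tested, of which 0 passed and 5 were negative, with 1 higher at an unadjusted p below 0.05 (limma). Their summed level was 88.0, 80.4 and 106.5 FPKM in cKO libraries, against 69.7, 90.1 and 87.3 FPKM in control libraries. The groups overlapped, and the highest sum was again in cKO 3. C1qb, a complement chain made by tissue macrophages, was at 16.3, 14.9 and 13.1 FPKM in cKO libraries, against 12.3, 15.6 and 16.3 FPKM in control libraries, a log2 change of 0.01 (SE 0.13, adjusted p = 0.975, limma). Lyz2 was at 17.7, 15.8 and 48.2 FPKM in cKO libraries, against 15.6, 22.6 and 23.1 FPKM in control libraries, with its highest value in the library of high neutrophil markers (adjusted p = 0.752, limma). The class II chain sum divided by the macrophage marker sum was 0.168, 0.218 and 0.31 in cKO libraries, against 0.424, 0.628 and 0.5 in control libraries. The groups did not overlap in this ratio, but the separation of cKO 3 rests on Lyz2, a marker shared with neutrophils. Without Lyz2, an alternative chosen after seeing the data, the ratio was 0.21, 0.271 and 0.566 in cKO libraries, against 0.546, 0.839 and 0.681 in control libraries, so that cKO 3 lay above control 1. Neither ratio was tested.

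All 12 dendritic cell markers were found and 5 tested, of which 2 rose, against 2.24% of all genes called higher. Their summed level was 47.5 to 53.5 FPKM in cKO libraries and 38.2 to 42.1 FPKM in control libraries. The sum was carried by the genes that rose, Naaa (log2 change 0.36, adjusted p = 0.04995, limma) and Zbtb46 (log2 change 0.45, adjusted p = 0.0328, limma), both of which are also expressed outside dendritic cells. The other tested markers did not pass. Clec9a was at 1.44 to 1.80 FPKM in cKO and 1.39 to 1.81 FPKM in control libraries, Batf3 at 1.61 to 2.77 FPKM in cKO and 1.98 to 2.5 FPKM in control libraries, and Clec10a at 3.60 to 7.20 FPKM in cKO and 2.83 to 6.45 FPKM in control libraries. Of the markers under the filter, Itgax, Flt3, Xcr1 and Ccr7 were below 0.2 FPKM in all 6 libraries, and Cd207 was listed at 0 in 5 of them. Cd209a was at 0.097, 0.067 and 0.453 FPKM in cKO libraries, against 0.266, 0.244 and 0.344 FPKM in control libraries. Siglech was at 0.191, 0.023 and 0.213 FPKM in cKO libraries, against 0.067, 0.07 and 0.052 FPKM in control libraries. Neither gene was tested, and both rest on few fragments. Of 12 listed B cell markers 11 were found and 5 tested, 0 passed and 2 were negative, with 1 lower and 2 higher at an unadjusted p below 0.05 (limma). Their summed level was 9.72 to 14.0 FPKM in cKO libraries and 6.28 to 15.5 FPKM in control libraries. The highest of them were Ighm, at 4.69 to 8.82 FPKM in cKO and 2.64 to 9.41 FPKM in control libraries (adjusted p = 0.641), and Igkc, at 0.793 to 2.53 FPKM in cKO and 0.565 to 3.13 FPKM in control libraries (adjusted p = 0.972, limma). A p that misses the threshold does not show that these cells were equally numerous in both groups.

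**Figure D4:**
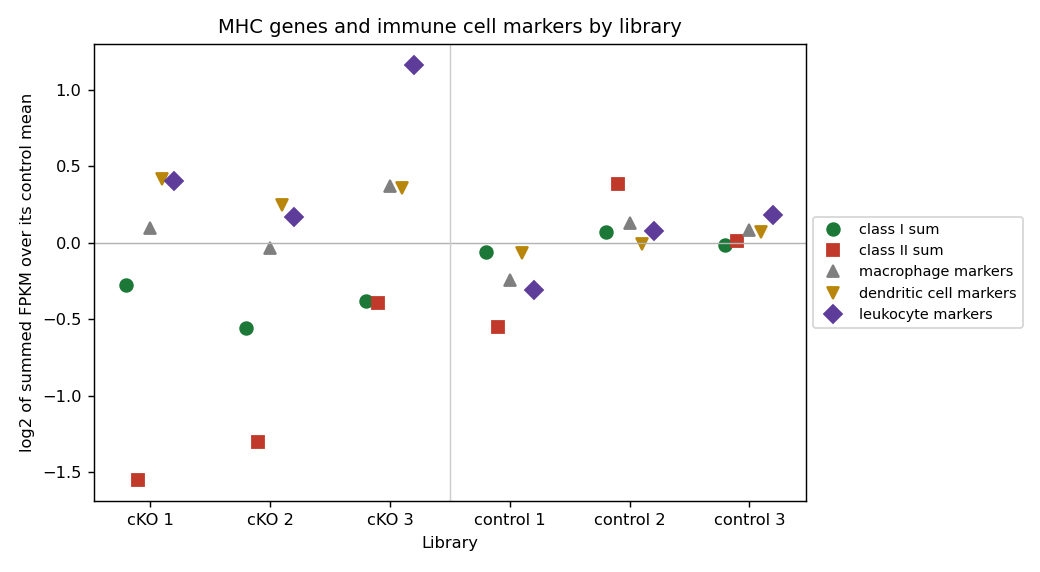
log2 of summed FPKM over its control mean in each cKO library (left) and control library (right), for class I (B2m, H2-K1 and H2-D1), class II (H2-Aa, H2-Ab1 and H2-Eb1) and markers of macrophages, dendritic cells and all leukocytes. The class II sum lies at -1.55, -1.30 and -0.39 in cKO libraries 1 to 3. In the same libraries macrophage markers lie at 0.096, -0.035 and 0.371, against -0.241, 0.13 and 0.084 in control libraries. Dendritic cell markers lie at 0.417, 0.244 and 0.357 in cKO libraries, and leukocyte markers at 0.40, 0.17 and 1.16. The last of these values is that of cKO 3, the library of high neutrophil markers.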

How the data were processed

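Groups came from the genotype labels. The authors deposited FPKM per gene; TopHat2 2.0, Cufflinks 2.0 and mm10 are named, without roles, per the submitters' processing notes. The annotation, like strandedness, filtering and between-library scaling, is not given in the sources used here. FPKM divides by the library total, so abundant transcripts lower all other values. No count model was fitted, because FPKM are not counts. All 6 value columns were matched to samples.

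Genes with a mean of at least 0.5 FPKM were compared by limma 3.58.1 under R 4.3.3, with lmFit and trended eBayes on log2(FPKM + 1), over 6 libraries, with Benjamini-Hochberg adjustment over 14934 genes and a threshold of 0.05. A fold change on this scale understates the change of low genes. The procedure was also run on simulated data with independent normal noise and no library that stands apart. That run therefore does not measure error rates in these libraries. Depth was estimated from FPKM below 0.15, read as 1 fragment each, in genes with 1 transcript and at least 1500 exon bases, and no interval was built on it.

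Gene positions and overlaps are from GENCODE M21 (mm10) and promoters from RefSeq. Of 322 listed symbols 314 were found, 5 of them by identifier. Promoters of 7 of the 10 genes were searched. No promoter entry was used for H2-Ab1 and Ciita, and Cd74 was left out by choice. The genes described and all lists were chosen with earlier results of these data known. Named beside the 10 genes were up to 4 passing genes per pathway list or its 2 most abundant where none passed, the 2 most abundant and all passing genes of marker lists described by gene, and 5 genes most like each class. Alternatives were the pseudocount, the filter, scaling between libraries, robust and weighted fits, and leaving out libraries. Pools of separate mice are the replicates. Some genes of the table are not reported.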

Additional observations from a re-analysis of the deposited data

How the results depend on the processing

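All 9 tested MHC genes kept a negative log2 change under each alternative that tested them. Of 252 values for 15 named genes under 17 alternatives, 194 stayed on their side of the threshold, 55 lost it, 3 gained it (all H2-D1) and 0 reversed, and the levels of all 10 genes against reference genes moved by less than the replicate spread. Only genes that passed with all libraries could lose the threshold, so the 194 also hold values of genes that had no call to lose. B2m passed in 8 of 17 alternatives. Of the other passing genes, Isg15 passed in 11, Raet1e and H2-M3 in 10 each, Jak1 and Ezh2 in 9 each, and Nlrc5 in 6 of 16. With all libraries 334 genes were higher and 312 lower, with 1 MHC gene lower and 6 other listed genes lower and 0 higher. Without a filter these were 4 higher and 24 lower, with 0 MHC genes and 0 other listed genes lower (limma, 4096 genes at an unadjusted p below 0.05). Quantile normalisation gave 270 higher and 421 lower, with 2 MHC genes lower. Centring on the median gave 254 higher and 577 lower, with 2 MHC genes lower, and centring on reference genes gave 341 higher and 284 lower. Under these scalings the median log2 change of all genes lay between -0.02 and 0.09. Library weights gave 1041 higher and 743 lower, with 2 MHC genes lower, and 11 other listed genes lower and 2 higher. Without cKO 3 and control 3, 204 genes were higher and 0 MHC genes were lower. With cKO 1 alone against 3 controls, where the cKO spread is assumed to be that of the controls, 22 genes were higher and 1 lower, with 0 MHC genes and 0 other listed genes lower (limma, 3541 genes at an unadjusted p below 0.05). These 4 libraries lie together in the numbers of their titles, and in this fit the log2 change was -0.35 for B2m, -0.05 for H2-K1, -0.26 for H2-D1 and -1.46 for H2-Aa. Without Lyz2 the mean ratio of class II to macrophage markers was 0.349 in cKO and 0.689 in control, against 0.232 in cKO and 0.517 in control with it. With 1 library left out, 0 to 307 genes were higher and 2 to 353 lower, 0 MHC genes were lower in each fit, and 0 to 5 other listed genes were lower and 0 to 1 higher (limma, 2266 to 3633 genes at an unadjusted p below 0.05). The lowest of these counts came without cKO 1, control 1 or control 2, and the cause was not tested. No paired analysis was possible because no label numbers the replicates. A difference within 3 against 3 pools cannot reach a permutation p below 0.1, and genes near 0.1 FPKM rest on few fragments.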

Other observations

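Among 22 tested genes of the type I interferon list, 7 had every cKO library below every control library, against 12% of all genes tested, and nothing particular to the list was tested. The genes named here were chosen after their values were seen. Bst2, the tether that holds budding virus, was at 216.8, 195.2 and 234.5 FPKM in cKO libraries, against 278.1, 281.2 and 259.0 FPKM in control libraries (adjusted p = 0.0792, limma). Oas2, an antiviral synthetase, was at 0.334, 0.323 and 0.14 FPKM in cKO libraries, against 0.874, 0.834 and 1.46 FPKM in control libraries (adjusted p = 0.0655, limma). Neither gene passed the test. Ifng itself was listed at 0 in cKO 1, control 1 and control 3 and was below 0.05 FPKM in the others.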
